A study of Mus musculus with 6 samples.

Results

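Corneal epithelial RNA libraries from 6 samples were compared by the number in their sample titles, 3 libraries with higher numbers against 3 with lower numbers, over all genes and with genotype as a second term. All 6 libraries of the series take part, and 12847 of the 25006 genes in the count table had enough counts to be fitted. The split was not a treatment named by the labels. It was chosen by the expression values themselves: the libraries were seen to separate by title number on the first principal component, and the 5 marker genes named for it (H60c, Notch1, Egr1, Klf4 and Nr1d1) were taken from the same contrast. The differences between the ranges are therefore a description, with no p-value given for any gene.

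The series compared corneal epithelium of wild type mice with that of mice labelled EphA2 null. Total RNA came from sheets of epithelium. The lower range held wild type lower 1 and 2, which share a title number and differ in their letter (N and R), and labelled null lower 1 (letter N). The higher range held wild type higher 1 (letter R) and labelled null higher 1 and 2, which share a number (letters B and N). The labels give no strain, age, sex or construction of the allele, and do not say what the title number stands for. Nothing says that the samples came from separate animals, so the spread between them may be technical. The lower range holds 2 wild type and 1 labelled null library and the higher range the reverse, which is why genotype stays in the fit. Epha2, the gene labelled as lost, does not show the label. Its level was 298, 253 and 285 CPM in the lower range and 563, 653 and 578 CPM in the higher one (CPM, TMM-scaled counts relative to library size). Labelled null lower 1 lay between the wild type libraries of its range, and both labelled null libraries of the higher range lay above wild type higher 1, so those libraries are called by their label throughout.

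The corneal epithelium is a stratified sheet kept up by dividing basal cells, which stop cycling as they move outward and are shed at the surface. EGF receptor and ERK signalling, Notch receptors, KLF factors and the circadian clock are all known to act in this tissue on division, migration and differentiation. Immediate early genes such as Egr1 and the AP-1 subunits respond to growth factors, injury and handling within minutes to hours, and Nr1d1 and Dbp are clock outputs whose level depends on the hour.

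Total counts ran from 16302476 to 20897761 in the lower range and from 15308013 to 27586942 in the higher one. The 20 most abundant genes took 16.8% to 17.2% of counts in the lower and 17.5% to 17.6% in the higher range. Principal component 1 took up 60.2% of the variance, with the lower libraries between -38.6 and -22.6 and the higher ones between 28.0 and 34.1. Component 2 took up 14.6% and set labelled null higher 1, at -31.3, apart from the other 5 (-4.25 to 17.1). Xist was at no more than 0.336 CPM and Ddx3y at no less than 94.0 CPM in every library. The corneal keratin gene Krt12 was at 13064 to 16025 CPM and Krt5 at 22805 to 30668 CPM, while Ms4a1 of B cells, Kera and Lum of the stroma, and Emcn, Kdr and Lyve1 of vessels were at 0 in every library. Other markers of those cells were present: Fbln1 of the stroma at 31.1 to 50.9 CPM, Pdgfra at 9.89 to 16.4 CPM, and Tie1 and Flt1 of vessels at 1.96 to 5.67 CPM. The 13 mitochondrial genes were also listed at 0, so a 0 in this table does not show that a cell type was missing.

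A gene is called here where edgeR's quasi-likelihood test gave a Benjamini-Hochberg adjusted p under 0.05. With the split taken from these values, a call marks only that a difference is large against its spread. Of the 12847 genes, 3154 were called higher (24.6%) and 2586 lower (20.1%) in the libraries with higher title numbers. Upper-quartile scaling moved the median of all genes by -0.12 on the log2 scale and the split to 2480 higher and 3797 lower, from 54.9% to 39.5% higher. Most differences were small: the median size over called genes was 0.56 on the log2 scale, and 713 of them (12.4%) reached 2-fold. With no overlap between the ranges and at least 2-fold, 455 genes were higher (3.54%) and 290 lower (2.26%). Lmf2 (1.002) and Wnk2 (0.999) lay just inside and just outside this limit on the higher side, and Ddr2 (-1.001) and Mastl (-0.996) on the lower side. The difference had the same sign within wild type and within the labelled null libraries in 83.4% of genes (10708), a share that the choice of the split favours. Without labelled null higher 1, which component 2 set apart, 3221 genes were called higher and 2582 lower. Without labelled null lower 1, which leaves the lower range with wild type libraries only, the counts were 850 and 253. Without wild type lower 2 they were 2065 and 1484, and without wild type higher 1 they were 2225 and 1477.

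**Figure D1:**
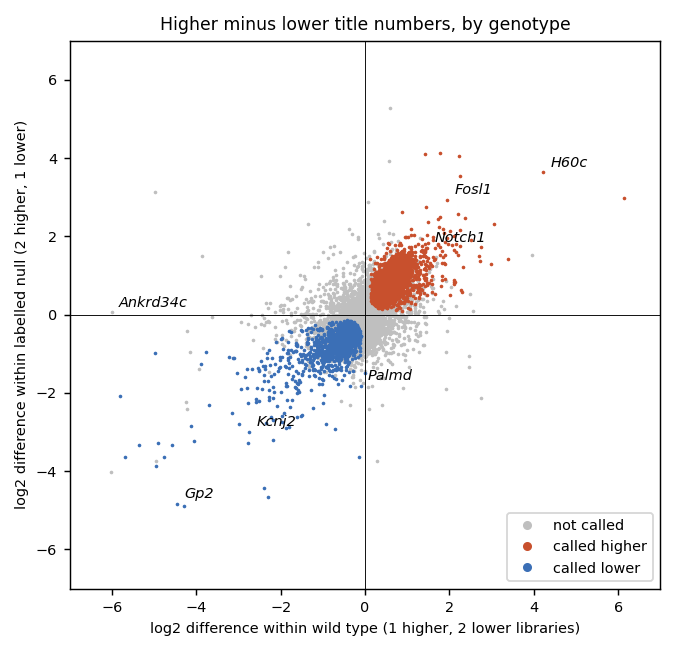
Each point is 1 of the 12847 genes; the x axis is the log2 difference, higher minus lower title numbers, within the wild type libraries and the y axis the same within the libraries labelled EphA2 null, coloured by call. Most genes, 83.4%, lie in the lower left or upper right quadrant; Ankrd34c and Palmd differ in 1 genotype only by value.

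Of the named genes averaging 5 CPM or more, H60c was the farthest above 0. It encodes a ligand of NKG2D, the activating receptor of natural killer and T cells. H60c was at 16.4, 14.4 and 22.2 CPM in the lower range and at 287, 298 and 258 CPM in the higher range. The 6 values fall into 2 tight sets far apart, with a log2 difference of 3.94 ± 0.15 (SE), 4.22 within wild type and 3.64 within the labelled null libraries. The other NKG2D ligand gene with enough counts was Ulbp1, at 10.1, 13.0 and 12.8 CPM against 8.37, 8.41 and 8.36 CPM. It lay the other way, by -0.54 ± 0.15. The unnamed gene model Gm5478, singled out after its values were seen, had a larger value (5.52 ± 1.20) but stood at 81.8 and 85.5 CPM in wild type higher 1 and labelled null higher 1 only, with 0.816 to 1.98 CPM in the other 4.

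Notch1, a receptor that directs epithelial cells toward differentiation, was at 93.6, 95.9 and 70.9 CPM in the lower and at 262, 242 and 222 CPM in the higher range. No library of the higher range came near those of the lower, and the log2 difference was 1.59 ± 0.10. Klf4, a factor of the corneal barrier and of surface differentiation, was at 761, 565 and 528 CPM against 1488, 2016 and 1554 CPM (1.46 ± 0.19). Egr1, the immediate early zinc finger factor, was at 339, 324 and 263 CPM against 1005, 675 and 788 CPM (1.54 ± 0.10). Within each range its wild type libraries were above the labelled null ones. Nr1d1, which encodes the clock repressor REV-ERB alpha, was at 141, 118 and 165 CPM against 306, 322 and 367 CPM (1.15 ± 0.11). In all 5 markers the lowest higher-range library exceeded the highest lower-range library. The markers were taken from this contrast, so that gap follows from their choice. Over all fitted genes 30.1% were higher without overlap and 28.8% lower without overlap.

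**Figure D2:**
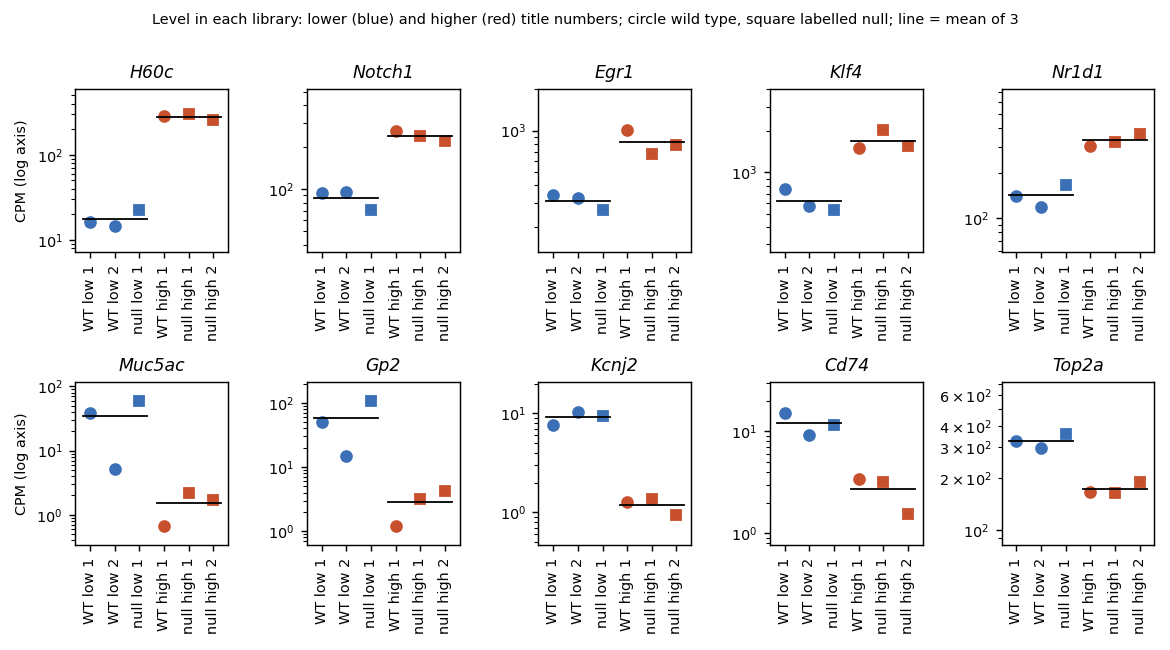
CPM of 10 genes in each of the 6 libraries on log axes, lower title numbers in blue and higher in red, circles for wild type and squares for libraries labelled EphA2 null, lines at the mean of 3. The genes were chosen for their differences in this contrast, and in each panel the ranges do not overlap. Over all fitted genes 30.1% were higher and 28.8% lower without overlap. H60c goes from 22.2 CPM at most to 258 CPM at least, and Gp2 from 14.9 CPM at least to 4.22 CPM at most.

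The promoters of 6 genes at both ends of the contrast are shown to let their start regions be compared. Each runs 5′ to 3′ on the gene's strand from 250 bases before the start to 50 after it, from RefSeq on GRCm38.p6, with matches to the searched motifs on either strand in capitals. H60c (chr10:3267722-3268021, minus strand) has 2 matches to the RBPJ core TGGGAA. Notch1 (chr2:26503773-26504072, minus strand) has 5 matches to the SP/KLF box GGGCGG, and Klf4 (chr4:55532426-55532725, minus strand) has 4, with 1 E-box CACGTG and 1 E2F match TTCCCGC. Nr1d1 (chr11:98775328-98775627, minus strand) has 2 matches to the pyrimidine tract CTTTTC, both on the opposite strand, so that they read GAAAAG as printed. Gp2 (chr7:119459223-119459522, minus strand), lower in the higher range, has a TATA box TATAAA, 1 NF-Y match CCAAT and 2 to TGGGAA. Kcnj2 (chr11:111065914-111066213, plus strand), also lower, has 2 SP/KLF matches, 1 E-box, 1 NF-Y match and 1 to TGGGAA.
H60c: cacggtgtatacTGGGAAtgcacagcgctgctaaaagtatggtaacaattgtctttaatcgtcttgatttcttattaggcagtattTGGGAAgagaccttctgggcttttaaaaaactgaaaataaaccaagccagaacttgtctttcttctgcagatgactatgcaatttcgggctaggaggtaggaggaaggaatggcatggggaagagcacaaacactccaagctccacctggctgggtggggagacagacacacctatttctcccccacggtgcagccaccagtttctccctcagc
Notch1: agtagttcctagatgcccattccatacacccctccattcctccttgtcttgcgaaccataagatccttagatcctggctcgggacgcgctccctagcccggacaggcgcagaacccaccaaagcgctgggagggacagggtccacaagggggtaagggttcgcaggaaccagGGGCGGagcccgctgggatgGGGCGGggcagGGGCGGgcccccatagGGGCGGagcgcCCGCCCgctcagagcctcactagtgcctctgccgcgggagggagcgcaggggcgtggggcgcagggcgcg
Klf4: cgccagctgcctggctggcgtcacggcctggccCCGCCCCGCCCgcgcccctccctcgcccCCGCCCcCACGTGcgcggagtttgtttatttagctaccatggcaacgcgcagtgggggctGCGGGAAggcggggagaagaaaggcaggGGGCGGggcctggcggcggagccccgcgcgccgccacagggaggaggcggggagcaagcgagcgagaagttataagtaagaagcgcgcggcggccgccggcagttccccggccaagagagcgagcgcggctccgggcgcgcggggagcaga
Nr1d1: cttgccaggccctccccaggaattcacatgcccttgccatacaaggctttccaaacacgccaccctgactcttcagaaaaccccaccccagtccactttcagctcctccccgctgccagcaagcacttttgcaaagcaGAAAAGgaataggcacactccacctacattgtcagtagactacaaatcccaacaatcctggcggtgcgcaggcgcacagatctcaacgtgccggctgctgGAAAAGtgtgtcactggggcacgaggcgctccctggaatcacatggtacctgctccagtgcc
Gp2: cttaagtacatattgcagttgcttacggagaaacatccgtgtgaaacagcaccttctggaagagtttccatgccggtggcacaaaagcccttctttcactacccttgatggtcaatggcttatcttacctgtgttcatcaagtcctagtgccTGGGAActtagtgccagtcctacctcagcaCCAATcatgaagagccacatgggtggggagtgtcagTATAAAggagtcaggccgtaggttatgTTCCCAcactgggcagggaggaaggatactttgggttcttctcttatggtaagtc
Kcnj2: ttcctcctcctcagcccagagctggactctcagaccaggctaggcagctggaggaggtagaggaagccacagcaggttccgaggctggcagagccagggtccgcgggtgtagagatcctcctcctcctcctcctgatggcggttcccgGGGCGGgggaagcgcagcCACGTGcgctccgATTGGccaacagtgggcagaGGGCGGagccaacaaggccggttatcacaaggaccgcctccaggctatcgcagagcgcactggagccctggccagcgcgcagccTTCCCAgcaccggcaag

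Over all 10146 fitted genes with a promoter in that table, GGGCGG was present in 64.0%, in 73.6% of the 2507 called higher and in 58.0% of the 2081 called lower. CCAAT stood at 39.0%, 34.3% and 44.4% in that order, and the ETS core CCGGAAG at 18.5%, 15.9% and 23.8%. The CHR element TTTGAA of cell cycle genes was in 12% of all fitted genes, in 8.14% of those called higher and in 15.5% of those called lower. The AP-1 site TGACTCA was in 3.66%, 3.03% and 3.51%, and the E-box in 10.1%, 10.4% and 8.75%. Promoters of genes called higher were also richer in GC, with a median of 64.3% against 58% in those called lower and 60.7% in all. Among all 27025 promoters of this length in the table, 35.9% held GGGCGG. These are counts of letters and were not tested.

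Growth factor response genes were mostly higher. Of 24 AP-1, EGR and other immediate early genes, 15 were called higher and 0 lower, with a median log2 difference of 0.70, against a median of -0.01 over all genes. The shares over all genes, for this and every later list, were 24.6% called higher and 20.1% called lower. Fosl1, which encodes the AP-1 subunit FRA-1, was at 3.52, 3.32 and 1.88 CPM against 13.3, 45.3 and 4.78 CPM (2.75 ± 0.84). Labelled null higher 1 was the highest library for Fosl1. The difference was 1.94 within wild type, which does not include that library, and 2.94 within the labelled null libraries. Junb was at 609, 561 and 423 CPM against 1095, 812 and 804 CPM (0.92 ± 0.09), and Jun at 703, 494 and 474 CPM against 1044, 1278 and 853 CPM (0.98 ± 0.20). Fos itself overlapped, at 1091, 857 and 730 CPM against 1477, 782 and 890 CPM, although with genotype in the fit it was called (0.40 ± 0.14). Atf3 (0.04), Btg2 (-0.07) and Jund (0.03) had differences close to 0 and were not called, and Klf2, at -0.76, was not called either.

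Of 18 fitted ERK feedback inhibitors and ETS targets 13 were called higher and 0 lower (median 0.67), among them targets that are no inhibitors of the pathway, such as the cyclin gene Ccnd1 and the factor gene Etv5. Spry2, a Sprouty inhibitor of receptor tyrosine kinase signalling, was at 19.4, 18.9 and 15.7 CPM against 43.3, 54.5 and 32.9 CPM (1.32 ± 0.20). Dusp1, a phosphatase of MAP kinases, was at 1181, 1056 and 1121 CPM against 2065, 2206 and 1674 CPM (0.84 ± 0.13). The ERK-specific phosphatase gene Dusp6 had 0.28 and was not called. Among the EGF family, the ligand gene Tgfa was at 21.2, 18.4 and 19.4 CPM against 44.2, 43.9 and 48.0 CPM (1.20 ± 0.11), and the receptor genes Erbb2 (1.15 ± 0.15) and Erbb3 (0.94 ± 0.14) were higher without overlap. Egfr itself differed by 0.12 and was not called. In all 8 of the 18 EGF family genes were called higher and 2 lower. Those 2 were the ligand gene Btc (-0.36, and 0.11 after correction for exonic length and GC) and the sheddase gene Adam17 (-0.39). The ligand gene Epgn overlapped, with 230 CPM in labelled null higher 1 and 18.0 CPM in labelled null higher 2.

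In the Notch pathway 15 of 21 fitted genes were called higher and 1 lower (median 0.55). The receptor genes Notch2 (1.02 ± 0.13) and Notch3 (0.96 ± 0.18) followed Notch1, and the coactivator genes Maml1 (1.12 ± 0.14) and Maml3 (1.05 ± 0.12) were higher by similar amounts. The ligand gene Jag1 was at 199, 172 and 142 CPM against 274, 309 and 281 CPM (0.81 ± 0.13). The target gene Hes1 was at 913, 927 and 934 CPM against 1395, 1156 and 1470 CPM (0.55 ± 0.12), so all 3 lower libraries lay within a narrow band below the others. Rbpj, the DNA-binding partner of the Notch intracellular domain, differed by -0.02, and Hes6, at -0.40, was the gene called lower. Of 16 Eph receptor and ephrin genes 12 were called higher and 0 lower (median 0.75), among them the ligand genes Efnb2 (1.16 ± 0.17) and Efna1 (1.005 ± 0.10) and Epha2 itself (1.07 ± 0.11). WNT pathway genes had 16 of 23 called higher and 0 lower (median 0.60), with the feedback gene Axin2 at 2.17, 2.16 and 1.61 CPM against 3.58, 3.74 and 3.58 CPM. After correction for exonic length and GC, 5 were called higher and 2 lower, and Axin2 was not. TGF-beta and BMP genes had 8 of 22 higher and 2 lower (median 0.42), and YAP and TEAD targets 9 of 16 higher and 3 lower (median 0.42), with the classical target Ccn2 among the lower ones (-0.79 ± 0.24). After that correction the YAP and TEAD list had a median of 0.08, and Ccn2 was not called.

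Of 25 KLF and differentiation factors 17 were called higher and 1, Ehf, lower (median 0.68). Grhl3, a grainyhead factor of barrier formation, was at 152, 102 and 124 CPM against 283, 292 and 284 CPM (1.18 ± 0.15), and Klf5, a factor of proliferating epithelium, at 159, 121 and 108 CPM against 212, 290 and 198 CPM (0.89 ± 0.20). Pax6, which specifies the corneal epithelium, was at 916, 819 and 918 CPM against 927, 815 and 940 CPM, and Trp63 of basal cells differed by 0.20 ± 0.09; neither was called. Keratins of the corneal and basal layers had 0 of 9 called higher and 1 lower. Krt12 (0.24 ± 0.13) and Krt5 (0.30 ± 0.14) were not called, although their ranges did not overlap. The stress keratin gene Krt16 was at 7.96, 11.5 and 19.8 CPM against 16.9, 70.8 and 26.7 CPM and overlapped.

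Cornified envelope genes split, with 4 of 15 called higher and 6 lower, against 24.6% and 20.1% of all genes. The late envelope genes Lce3a (32.8, 33.7 and 47.5 CPM against 14.5, 19.6 and 13.1 CPM, -1.38 ± 0.17) and Lce3f (-1.74 ± 0.37) were lower, and the plakin genes Evpl (0.93 ± 0.16; 0.19 and not called after the length and GC correction) and Ppl (0.83) higher. The desmosomal plaque genes Dsp and Jup were higher, Dsp at 3379, 2791 and 2234 CPM against 5802, 6039 and 6077 CPM (1.18 ± 0.16) and Jup by 1.17 ± 0.17, while the desmosomal cadherin gene Dsg3 (-0.24) was not called and Dsc3 (-0.40) was called lower. Over the 17 desmosome genes the median was 0.11, and -0.02 with upper-quartile scaling, so no direction is given for them together. Of 28 adherens and tight junction genes 18 were called higher and 3 lower (median 0.46). Cdh1, E-cadherin, was at 408, 327 and 305 CPM against 566, 645 and 645 CPM (0.85 ± 0.14), while the claudin genes Cldn1 (-1.18 ± 0.22) and Cldn8 (-1.14 ± 0.14) were lower. Hemidesmosome and matrix receptor genes had 13 of 24 called higher and 3 lower (median 0.54), with Itgb4 at 304, 270 and 176 CPM against 481, 523 and 590 CPM (1.20 ± 0.20) and Itgb8 the farthest below 0 (-2.29 ± 0.30).

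Of 23 clock and clock output genes 11 were called higher and 0 lower (median 0.63). The PAR bZIP output gene Dbp was at 6.27, 8.33 and 9.54 CPM against 31.2, 16.2 and 18.0 CPM (1.48 ± 0.25), and Tef of the same family at 48.0, 43.5 and 57.3 CPM against 113, 84.8 and 82.9 CPM (0.92 ± 0.15). Per2 of the negative limb was higher (1.10 ± 0.20), and so was Bhlhe40 (0.78 ± 0.14). Arntl, which encodes BMAL1 and cycles in antiphase to Nr1d1, was at 89.3, 90.4 and 101 CPM against 91.2, 119 and 120 CPM and was not called (0.14 ± 0.09). Per1 was at 64.4, 59.5 and 53.2 CPM against 99.1, 44.9 and 52.5 CPM, high in wild type higher 1 only. The labels give no hour of collection. Of 20 glucocorticoid receptor targets 7 were called higher and 5 lower (median 0.18; -0.13 without wild type higher 1), with Fkbp5 (0.68) and Tsc22d3 (-0.76), both targets of the receptor, on opposite sides.

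Mitotic genes were lower. Of 30 G2/M genes 23 were called lower and 0 higher, with a median log2 difference of -0.64. Top2a, the topoisomerase of chromosome condensation, was at 325, 298 and 357 CPM against 166, 164 and 189 CPM (-0.96 ± 0.10). Cdk1, the mitotic kinase, was at 66.0, 58.8 and 69.1 CPM against 33.6, 37.3 and 39.3 CPM (-0.87 ± 0.09), and Mki67 at 365, 346 and 380 CPM against 238, 217 and 264 CPM (-0.62 ± 0.10). For each of these 3 genes the ranges stood clear of each other. The genes not called include Plk1 (0.23), Aurkb (0.09) and Cdc20 (0.03), which act during mitosis. Of 30 G1/S and replication genes 14 were called lower and 0 higher (median -0.31). Tyms (-0.80 ± 0.20) and Pcna (-0.45) were lower, while Mcm2 (0.03), Mcm3 (0.07) and Ccne1 (0.08) were not called. In bulk RNA, fewer cells of a type and less RNA per cell cannot be told apart.

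Of 57 nuclear genes of oxidative phosphorylation 39 were called lower and 2 higher (median -0.44). Ndufa4 was at 325, 320 and 328 CPM against 177, 257 and 229 CPM (-0.65 ± 0.12). After the length and GC correction its difference was 0.17 and it was not called. It belongs to the shortest and most GC-poor group of genes, whose own median was 0.24 after that correction. Proteasome subunit genes had 21 of 30 lower and 1, Psmd3, higher (median -0.38). Mitochondrial ribosome and import genes had 11 of 34 lower and 1 higher (median -0.27), with 22 not called. Over all genes 20.1% were called lower and 24.6% higher. Ribosomal protein genes had 23 of 42 lower and 1, Rpl3, higher (median -0.32). Their levels are uncertain: Rpl24 was at 1.53 to 3.15 CPM and Gapdh at 4.49 to 9.30 CPM, low for such abundant transcripts, and both families have many processed copies in the genome. NRF2 targets had 13 of 34 lower and 2 higher (median -0.25), among them the cystine transporter gene Slc7a11 (-1.84 ± 0.37) and the glutathione transferase gene Gstm1 at 72.8, 70.8 and 72.7 CPM against 37.3, 46.4 and 37.7 CPM.

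Of 25 sterol and SREBP genes 11 were called higher and 2 lower (median 0.26), against 24.6% and 20.1% over all genes. Srebf2, the master regulator of the pathway, was at 252, 181 and 171 CPM against 402, 440 and 487 CPM (1.17 ± 0.17). Fasn, fatty acid synthase, was at 224, 164 and 122 CPM against 430, 449 and 563 CPM (1.60 ± 0.22), but the 26 fatty acid genes together had a median of 0.11, which was -0.02 with upper-quartile scaling. Glycolysis and glycogen genes had 9 of 28 higher and 1 lower (median 0.21), among them the hexokinase gene Hk2 (0.94 ± 0.22). Chromatin regulators with long transcripts had 30 of 33 called higher and 0 lower (median 0.83). Arid1a of the BAF complex was at 123, 97.9 and 85.1 CPM against 223, 191 and 249 CPM (1.19 ± 0.15), and the acetyltransferase gene Ep300 at 119, 90.4 and 96.96 CPM against 220, 202 and 219 CPM (1.10 ± 0.12).

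Of the named genes averaging 5 CPM or more, Muc5ac and Gp2 were the farthest below 0. Muc5ac, the gel-forming mucin of conjunctival goblet cells, was at 38.5, 5.24 and 58.8 CPM against 0.675, 2.21 and 1.68 CPM (-4.95 ± 0.71). Gp2, which encodes an apical glycoprotein of secretory and antigen-sampling epithelia, was at 50.99, 14.9 and 106 CPM against 1.22, 3.20 and 4.22 CPM (-4.81 ± 0.46). In both genes wild type lower 2 was the lowest of the lower range and wild type higher 1 the lowest of all. Muc5b (2.94, 0.466 and 9.999 CPM against 0.203, 0.197 and 0.598 CPM) and Agr2, a disulfide isomerase of mucus cells (24.3, 17.2 and 26.5 CPM against 4.86, 12.3 and 7.54 CPM), were lower too. Of the 11 fitted markers of conjunctiva and goblet cells 5 were called lower and 0 higher (median -0.63), and their summed level was 5066 to 6581 CPM in the lower and 3391 to 6139 CPM in the higher range. The sum overlaps because it is carried by Krt13 and Krt4. Krt4 was at 1498, 902 and 1587 CPM against 675, 1762 and 657 CPM.

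Cd74, the invariant chain of MHC class II, was at 15.2, 9.20 and 11.5 CPM against 3.44, 3.15 and 1.53 CPM (-2.10 ± 0.31), and 12 of 16 fitted leukocyte markers were called lower with it (median -1.97). H2-Aa was at 11.7, 5.71 and 8.07 CPM against 1.76, 0.984 and 0.710 CPM, and Ptprc, the common leukocyte antigen CD45, at 1.40, 1.40 and 1.93 CPM against 0.270, 0.246 and 0.261 CPM. The 2 called higher were Kit, at 235, 139 and 213 CPM against 336, 322 and 374 CPM, and S100a8. S100a9 was among the 12 called lower (-1.15 ± 0.36), but its ranges overlapped, at 15.1, 14.7 and 16.9 CPM against 3.71, 15.6 and 7.80 CPM. After correction for exonic length and GC it was not called (-0.43). Epithelium can express Kit and S100 genes, so these members do not mark leukocytes alone. Kit also sets the summed level of the list, 215 to 331.8 CPM in the lower and 377 to 414 CPM in the higher range, opposite to the class II genes. Of the 3 fitted stromal markers 1 was called, the intermediate filament gene Vim (1.78, 1.75 and 1.61 CPM against 0.540, 0.394 and 0.336 CPM). The more abundant Fbln1 (0.33 ± 0.15) and Pdgfra (0.29 ± 0.20) had differences above 0 and were not called. The median of the list was 0.29 (-0.04 after correction for exonic length and GC). Of the markers of nerve and Schwann cells 2 of 5 were called higher and 0 lower, with a summed level of 247 to 339 CPM in the lower and 386 to 499 CPM in the higher range. The part of these cells in any other difference was not tested. The count filter took the title-number ranges as groups, so genes near its limit, such as Ptprc and Vim, entered only through the range where they were high. The count and median of the leukocyte markers and the Vim call are partly set by that filter. Further genes below 0 were the potassium channel gene Kcnj2 (7.57, 10.4 and 9.36 CPM against 1.28, 1.38 and 0.934 CPM), the receptor phosphatase gene Ptprz1 (-2.01 ± 0.20), the factor gene Tfcp2l1 (-1.99 ± 0.44) and the cytochrome gene Cyp2f2 (502, 418 and 493 CPM against 79.9, 245 and 138 CPM), with the genes Rnf122, Sptssb, Slco4c1 and Tspan8 between -1.99 and -1.65.

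**Figure D3:**
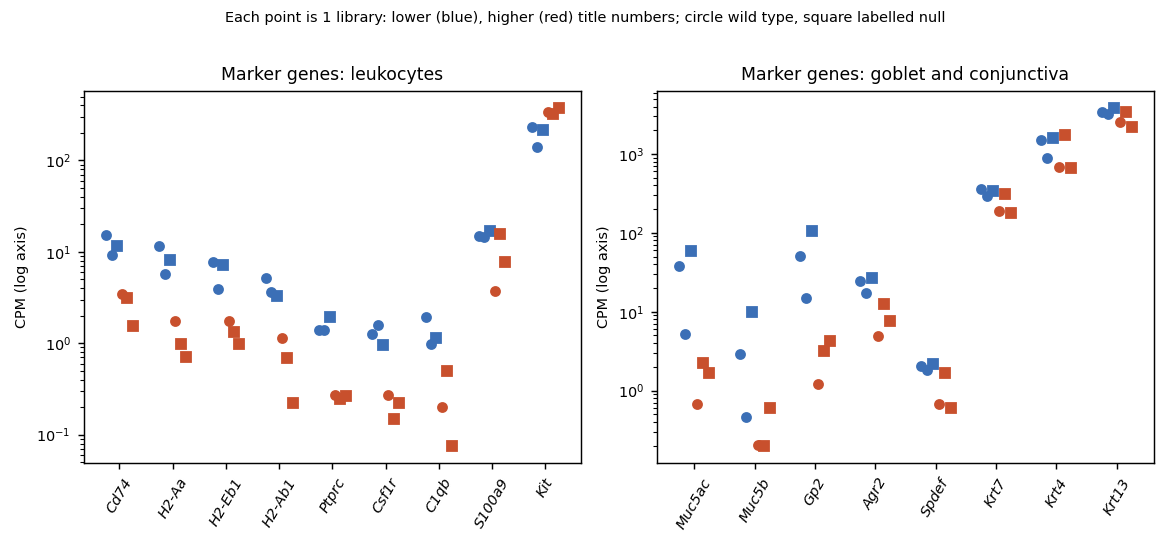
CPM of leukocyte markers (left) and of goblet cell and conjunctival genes with the mucin gene Muc5b (right), log axes, 1 point per library, lower title numbers blue and higher red, circles wild type and squares labelled null. Class II genes and Ptprc fall below the lower range in all 3 higher libraries, Kit lies above it, and Krt4 and Krt13 overlap.

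On the higher side the other leading genes were Arhgap30, a GTPase-activating protein gene (8.10, 3.50 and 3.58 CPM against 18.2, 26.2 and 16.0 CPM), the basement membrane gene Nid1 (41.3, 30.6 and 31.3 CPM against 158, 144 and 84.3 CPM), the complement gene C3 (6.27, 10.02 and 6.10 CPM against 22.1, 18.4 and 34.7 CPM), Hap1 (1.61 ± 0.26), the phosphatase-targeting gene Ppp1r10 (1.56 ± 0.13) and Pthlh, which encodes parathyroid hormone-related protein (1.54 ± 0.20). Piezo2, a mechanosensitive channel gene, was among the 12 largest by value but was not called (1.77 ± 0.85). It stood at 82.4, 1.40 and 54.9 CPM against 170, 140 and 177 CPM, with wild type lower 2 far below the others. The difference was 3.96 within wild type and 1.52 within the labelled null libraries, which do not include that library.

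The remaining lists had medians nearer 0 or members on both sides. Over all fitted genes 24.6% were called higher and 20.1% lower, and several of these lists lay near those shares. Corneal crystallins and aldehyde dehydrogenases had 5 of 13 higher and 5 lower: Aldh3a1, the abundant corneal crystallin, was at 16547, 14182 and 13807 CPM against 20416, 24697 and 25282 CPM (0.63 ± 0.16), and Aldh1a1 at 247, 252 and 250 CPM against 120, 108 and 73.3 CPM (-1.26 ± 0.16). Inflammatory genes had 4 of 26 higher and 9 lower, with the alarmin gene Il33 at 18.4, 22.5 and 25.7 CPM against 8.78, 13.6 and 11.02 CPM (-1.14 ± 0.14) and the chemokine gene Cxcl1 not called (0.06 ± 0.87). Interferon-stimulated genes had 0 of 37 higher and 3 lower, with a median of -0.46 within wild type and 0.34 within the labelled null libraries. Over all 6 libraries it was -0.12, without wild type higher 1 0.38 and without wild type lower 1 0.03. p53 targets had 7 of 20 higher and 4 lower, heat shock genes 7 of 23 and 3, unfolded protein response genes 7 of 23 and 4, HIF targets 6 of 18 and 2, and splicing factor genes 8 of 33 and 6. Autophagy genes had 13 of 37 higher and 4 lower, with a median of 0.04 that was -0.08 under upper-quartile scaling: Atg2a (1.05 ± 0.10) and Ulk1 (0.87 ± 0.10) were higher, Atg5 (-0.39, and 0.08 after correction) and Atg12 (-0.34) lower. Primary cilium genes had 3 of 47 higher and 11 lower (median -0.16), with Cep164 (0.69 ± 0.13, and -0.01 after correction) on the one side and Ift80 (-0.64 ± 0.11) on the other.

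The difference followed exonic length, the union of all annotated exons of a gene, and the GC content of its longest transcript. By quintiles of that GC content, from poorest to richest, the median log2 difference was -0.33, -0.17, 0.03, 0.21 and 0.43. The share called higher ran from 4.55% to 46.1% while that called lower ran from 42.9% to 5.22%. By quintiles of exonic length the medians were -0.22, -0.05, 0.06, 0.09 and 0.13. In the shortest and most GC-poor group (255 genes) the median was -0.48, and in the longest and most GC-rich (220 genes) 0.74, with 76.4% called higher and 0% lower. The gradient was present within both genotypes, from -0.25 to 0.31 over the GC quintiles in wild type and from -0.40 to 0.51 in the labelled null libraries. Genes called higher had a median exonic length of 5528 bases, 53.8% GC and 13 exons, those called lower 3890 bases, 44.8% and 8, and all fitted genes 4429 bases, 49.6% and 10. The X chromosome, whose genes had a median GC of 45.4%, had 12.8% called higher and 34.4% lower, and chromosome 15, at 52.98%, had 31.1% and 13.4%.

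Single libraries took graded places along this gradient. Relative to the mean of the 6 libraries, the longest and most GC-rich genes stood at a median of -0.19, -0.30 and -0.53 in wild type lower 1, wild type lower 2 and labelled null lower 1, and at 0.37, 0.21 and 0.50 in wild type higher 1, labelled null higher 1 and labelled null higher 2. The shortest and most GC-poor genes stood at 0.13, 0.24 and 0.30, and at -0.24, -0.16 and -0.24, in the same order. Wild type lower 1 was the least extreme of its range in both groups of genes, and labelled null higher 1 of its own. The labels give neither RNA integrity nor a library date, and their part was not tested.

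**Figure D4:**
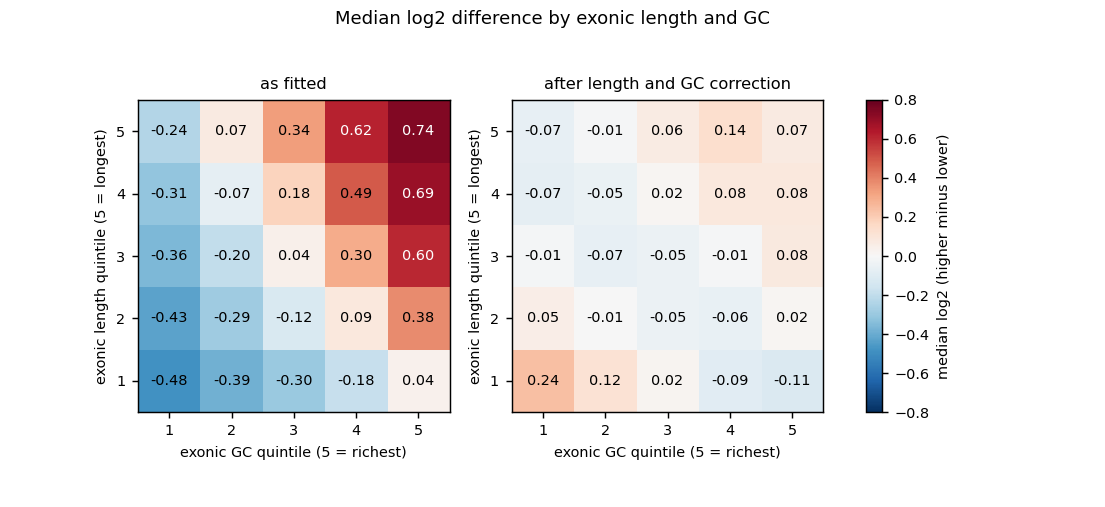
Median log2 difference, higher minus lower title numbers, in 25 groups of genes by quintiles of exonic length (y) and GC of the longest transcript (x, labelled exonic GC). Values are as fitted (left) and after correction for both (right). As fitted the medians run from -0.48 at the lower left to 0.74 at the upper right; after correction they lie between -0.11 and 0.24.

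Length and GC were therefore fitted as smooth offsets per library and the comparison repeated. After this correction 1938 of 12841 genes were called higher and 1621 lower, the background for the list counts that follow. Of the genes called before, 1525 kept a higher call and 1090 a lower call, and 36 were called in the opposite direction. H60c, with 2817 exonic bases and 42.1% GC, had a larger difference after correction (4.43), and Muc5ac one of -5.50. Egr1 (1.03), Klf4 (1.26), Nr1d1 (0.84) and Notch1 (0.87) kept their calls with smaller sizes, and Epha2 went to 0.58. Of the lists, the G2/M genes had a median of -0.59 with 21 of 30 still called lower, ERK feedback genes 0.61 with 10 of 18 higher, and immediate early genes 0.55 with 12 higher and 1 lower. KLF and differentiation factors had 0.48 with 15 of 25 higher, and clock genes 0.37 with 8 of 23 higher and 1 lower. Leukocyte markers had -2.10 with 11 of 16 lower and 2 higher. WNT genes went to 0.28 with 5 of 23 higher and 2 lower, and YAP and TEAD targets to 0.08 with 5 of 16 higher and 1 lower. Notch genes went to 0.23 with 10 of 21 higher and 2 lower. Chromatin regulators went to 0.36 with 18 of 33 higher and 2 lower, and hemidesmosome genes to 0.06 with 5 higher and 5 lower. Oxidative phosphorylation went to -0.14 with 19 of 57 lower and 3 higher. Proteasome genes went to -0.11 with 7 of 30 lower and 3 higher, and ribosomal protein genes to -0.11 with 8 of 42 lower and 4 higher. Glycolysis genes (0.21 to -0.04), heat shock genes (-0.12 to 0.07) and long noncoding RNAs (-0.29 to 0.21) changed sign. The correction left some of the gradient and overshot in places: the shortest and most GC-poor group went from -0.48 to 0.24. Among the genes named in the text as called, these lost their call: Fosl1 (2.54), Krt16 (1.04), Per2 (0.67), Axin2 (0.52), Tef (0.49), Gapdh (0.47), Fkbp5 (0.31), Ulk1 (0.25), Notch3 (0.22), Evpl (0.19) and Wnk2 (0.16) on the higher side, and Sptssb (-1.03), Palmd (-0.75), Ccn2 (-0.65), S100a9 (-0.43), Rpl24 (-0.35), Ulbp1 (-0.32), Dsc3 (-0.17), Ehf (-0.11) and Pcna (-0.03) on the lower. Btc, Ndufa4, Atg5 and Cep164 lost their call and changed sign.

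**Figure D5:**
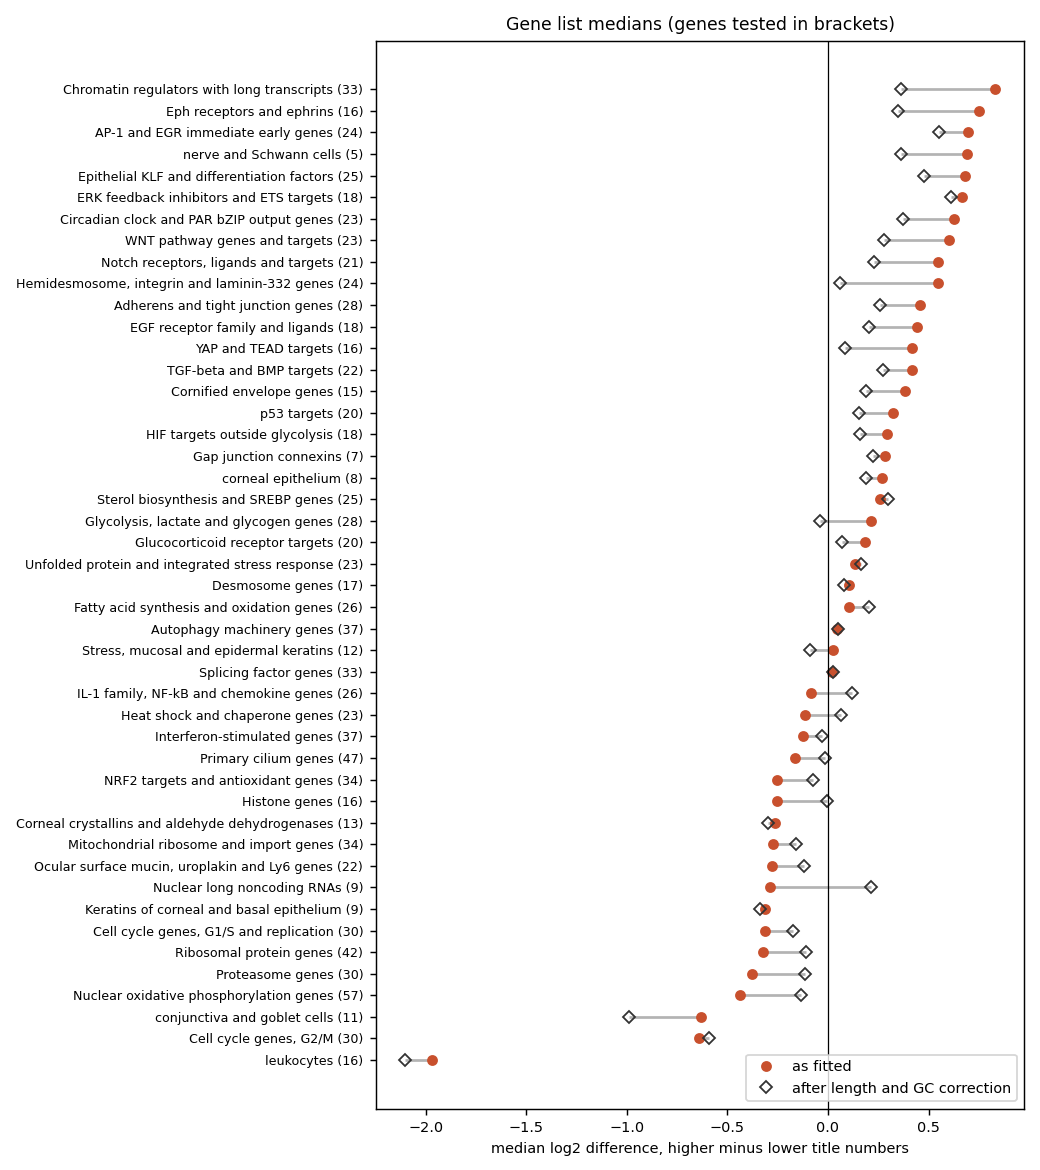
Median log2 difference, higher minus lower title numbers, of each gene or marker list with at least 5 fitted genes; filled points as fitted, open diamonds after length and GC correction. G2/M genes (-0.64 and -0.59) and ERK feedback genes (0.67 and 0.61) move little, hemidesmosome genes go from 0.54 to 0.06.

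Whether the title-number difference depends on genotype was tested with an interaction term, which leaves 2 residual degrees of freedom. The split was taken up because libraries of both genotypes separated the same way, which favours a small interaction. Few or no calls are therefore not read as agreement between genotypes. Both come from pairs of libraries that share a title number, so the error is the spread within a number, which may be technical. No gene passed (0%), the smallest adjusted p being 0.211 in edgeR's quasi-likelihood test. Without adjustment 605 genes (4.71%) had a p under 0.05. limma voom called 0, with 539 unadjusted, and DESeq2 called 3, Palmd, Ankrd34c and Stfa1, with 340 unadjusted. The smallest p-values are given as values only. Ankrd34c was at 61.5, 35.3 and 34.6 CPM in the lower range and at 0.675, 45.7 and 28.3 CPM in the higher one, an interaction of 6.24 ± 0.72 (adjusted p = 0.211, edgeR) that is set by wild type higher 1 alone. Palmd, a palmdelphin gene, was at 67.9, 72.5 and 81.8 CPM against 65.1, 25.4 and 21.1 CPM, low in both labelled null libraries of the higher range (-1.71 ± 0.22, adjusted p = 0.211, edgeR). Nxpe4 had the same form, 8.10, 7.22 and 8.39 CPM against 10.1, 1.38 and 2.02 CPM (-2.68 ± 0.39, adjusted p = 0.455, edgeR), and so had Gm31520. Frem1 was high in labelled null lower 1 and in all of the higher range (-1.88 ± 0.30, adjusted p = 0.661, edgeR).

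With the title-number range in the fit, 1 of 12847 genes (0.00778%) passed for genotype in edgeR, Padi1, which encodes a peptidylarginine deiminase, and 497 had an unadjusted p under 0.05. DESeq2 called 17. Padi1 was at 2.46, 1.63 and 27.3 CPM in the lower and 2.16, 32.0 and 36.2 CPM in the higher range, so it followed the label in both, and its title-number difference was 0.25 ± 0.17. Olfm4, at 33.3, 34.8 and 64.5 CPM against 11.3, 24.6 and 21.7 CPM, did not pass for genotype (0.97 ± 0.11, adjusted p = 0.0698, edgeR), and its title-number difference was -1.53 ± 0.11.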

How the data were processed

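The authors deposited raw read counts per gene for 6 corneal epithelial libraries. No source used here states the aligner, the counting program, its strand setting or the genome build. Of 25006 genes 6617 were at 0 in every library, 24991 identifiers matched the GENCODE annotation on GRCm38, and the 13 mitochondrial genes were at 0. Total counts ran from 15308013 to 27586942.

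Counts were filtered with edgeR's filterByExpr, with the title-number ranges as groups, and scaled with TMM. They were fitted with edgeR 4.0.16 (glmQLFit, R 4.3.3), with title-number range and genotype as terms, and with their interaction in a separate fit. P-values were adjusted by Benjamini-Hochberg over all 12847 fitted genes. Limma 3.58.1 (voom) and DESeq2 1.42.0 were alternatives. Errors are SE of the fitted log2 difference. The fitting code was run on simulated independent libraries and had to return the sign of most added range and genotype effects. The interaction was exempt from that check. Shared title numbers and the length and GC gradient were not simulated.

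An added correction, chosen after seeing the data, fitted splines of exonic length and GC per library. Exonic length was the union of a gene's annotated exons, which can exceed any single transcript. GC was that of the longest transcript. The split, its members and all lists were chosen with earlier results of these data known. Genes were named by rule: Epha2 and the 5 markers, the 12 farthest from 0 on each side (mean of at least 5 CPM, no overlap, same sign in both genotypes, named genes only), up to 4 members per list with the largest difference, and the leading genes of the interaction and genotype terms. Other members are named as examples chosen after their values were seen. The planned likeness of genes to the markers was not computed because the libraries form separate clusters. Lists are described by counts and medians, without a set test.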

Additional observations from a re-analysis of the deposited data

How the results depend on the processing

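The counts moved with several settings. Genes called higher numbered 1938 and genes called lower 1621 after the length and GC correction, and 1852 and 936 at an adjusted p under 0.01 (edgeR). Leaving out each library in turn gave 850 to 3221 called higher and 253 to 2582 called lower, the lowest without labelled null lower 1. Genes without overlap and at least 2-fold higher numbered 173 after correction, 257 with upper-quartile scaling, and 310 (without labelled null lower 1) to 814 (without wild type higher 1) on leaving out each library. Those at least 2-fold lower numbered 620 without a filter on low counts. Interaction calls numbered 3 in DESeq2, 128 without a filter and 1 to 192 on leaving out each library, 192 without labelled null higher 2 and 105 without labelled null higher 1. They could not be fitted without labelled null lower 1 or wild type higher 1, each the only library of its genotype in its range, or on counts summed by title number. Genotype calls numbered 17 in DESeq2, 3 after correction, 68 without a filter and 1 to 7 on leaving out each library. Of 53 list medians, 16 changed sign in at least 1 alternative, 2 of them over 0.3 in size (sex-linked genes and vessel markers, both after correction). Among the genes named, Btc (0.11), Ndufa4 (0.17), Atg5 (0.0767) and Cep164 (-0.0061) changed sign after correction, and the cause was not tested. Ndufa4 belongs to the shortest and most GC-poor group of genes, whose median was itself 0.24 after correction. No paired analysis was possible because the replicate numbers do not mark samples that belong together across the ranges.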

Other observations

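Labelled null higher 1, the library apart on principal component 2, was the highest of the 6 in a group of genes chosen after their values were seen. The EGF family ligand gene Epgn was at 230 CPM there and at 18.0 to 58.8 CPM in the other 5 libraries. Ptgs2, which encodes the inducible cyclooxygenase, was at 14.1 CPM against at most 0.642 CPM elsewhere. The cornified envelope gene Sprr1a was at 179 CPM against 25.4 to 59.3 CPM, Atf3, a stress-induced factor gene, at 663 CPM against 166 to 315 CPM, and Plaur, the urokinase receptor gene, at 13.2 CPM against 1.93 to 5.40 CPM. Labelled null higher 2, from the same title number and genotype, was at 18.0 CPM for Epgn and 0.224 CPM for Ptgs2.

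Single libraries also stood far below the others in 3 genes averaging 5 CPM or more. Besides Ankrd34c in wild type higher 1 and Piezo2 in wild type lower 2, the cystatin gene Stfa1 was at 0.184 CPM in labelled null lower 1 and at 5.34 to 15.7 CPM in the other libraries.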
